A study of Mus musculus with 6 samples.

Results

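Enzymes that act on pregnenolone, progesterone and corticosteroids, with the related enzymes Hsd3b7 and Srd5a3, were compared between MA-10 mouse tumor Leydig cells and STARKO1 cells. They were chosen by gene symbol from a list of 9 genes: Hsd3b1, Hsd3b6, Hsd3b7, Hsd11b1, Hsd11b2, Akr1c18, Srd5a1, Srd5a3 and Sts. Of these, 8 were among the 14774 genes of the count table and all 8 passed the filter on low counts. Sts, the steroid sulfatase that releases steroids from their sulfates, was not listed in the table and was not analysed here. The lowest total of a listed gene over the 6 libraries was 10 counts. A gene that is not listed may thus have had fewer counts or may be missing for another reason. RNA sequencing was done on total RNA of 3 libraries of each cell line. MA-10 cells were wild type, a line derived from a mouse Leydig cell tumor. STARKO1 cells were a STAR knockout line made from MA-10 cells by CRISPR/Cas9 targeting of Star and grown from a single cell, so the knockout is represented by 1 clone. Both lines were untreated and grown under normal conditions. Neither the labels nor the methods say whether the libraries of a line came from separate cultures, so p-values measure the spread between these libraries, which may be technical.

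Steroid synthesis in Leydig cells begins when STAR brings cholesterol to the mitochondria and CYP11A1 cuts it to pregnenolone. The 3β-hydroxysteroid dehydrogenases HSD3B1 and HSD3B6 then oxidize and isomerize pregnenolone to progesterone, the main steroid that MA-10 cells release. Progesterone can be metabolised further by AKR1C18, which reduces its side chain, or by 5α-reductases such as SRD5A1, which reduce its ring. The related genes Hsd3b7 and Srd5a3 have other roles, given below. The HSD11B enzymes interconvert active and inactive glucocorticoids, HSD11B1 toward the active form and HSD11B2 toward the inactive form.

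Hsd3b1 (chr3:98852194-98859795, minus strand, GRCm38) and Hsd3b6 (chr3:98805504-98814444, minus strand) are neighbours of the same gene cluster, and their similarity decides how well their reads can be told apart. Their GENCODE coding sequences, of 1122 bases each, had the same base at 1010 positions (90.02%) and differed at 112. The stretch with the most differences, coding bases 64 to 153, is shown with the 19 differing bases in capitals.
Hsd3b1: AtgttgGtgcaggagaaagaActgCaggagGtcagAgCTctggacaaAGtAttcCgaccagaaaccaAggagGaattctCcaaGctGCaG
Hsd3b6: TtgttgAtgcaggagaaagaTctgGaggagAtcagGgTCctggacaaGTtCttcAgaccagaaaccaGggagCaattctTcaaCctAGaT
The longest run that both share, coding bases 250 to 321, had 72 bases and is shown once because it is the same in both genes.
Hsd3b1 and Hsd3b6: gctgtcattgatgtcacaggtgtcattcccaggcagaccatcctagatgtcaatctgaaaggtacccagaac
Of the 1781 windows of 75 bases in the Hsd3b1 transcript, 0 occurred in Hsd3b6, and of the 1806 windows of 50 bases, 38 (2.10%) did. Hsd3b6 was closer to Hsd3b2 (94.4% of aligned coding bases) and Hsd3b3 (94.5%), and shared 6.94% and 7.12% of its windows of 75 bases with them. Hsd3b2 and Hsd3b3 were not listed in the table, so counts of Hsd3b6 may hold reads of these copies, and its values are uncertain to that extent. The read length was not given in the sources used here.

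The 250 bases before the start of each of these 2 genes, from RefSeq promoters of GRCm38.p6, are shown because the results turn on these neighbours. They lie on the minus strand at chr3:98859795-98860044 for Hsd3b1 and chr3:98814444-98814693 for Hsd3b6.
Hsd3b1 promoter: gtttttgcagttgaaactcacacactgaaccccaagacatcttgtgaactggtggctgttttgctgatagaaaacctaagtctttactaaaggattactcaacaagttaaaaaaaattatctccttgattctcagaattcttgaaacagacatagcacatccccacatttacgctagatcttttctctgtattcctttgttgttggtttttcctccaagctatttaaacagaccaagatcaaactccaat
Hsd3b6 promoter: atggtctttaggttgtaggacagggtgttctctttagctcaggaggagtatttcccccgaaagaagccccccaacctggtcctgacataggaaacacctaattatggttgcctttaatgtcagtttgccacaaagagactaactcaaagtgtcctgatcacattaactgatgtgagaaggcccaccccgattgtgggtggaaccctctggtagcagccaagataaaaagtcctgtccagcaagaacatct
The promoters were much less alike than the coding sequences, with 61.6% of 216 aligned bases identical. The letters AGGTCA, and the longer AAGGTCA that contains them and is bound by the steroidogenic regulator NR5A1, were searched on both strands. Neither occurred in these windows or in those of the other 5 of the 7 enzymes with a promoter entry, while 14.02% and 4.08% of all 32851 promoters of this length held them. This says only that these letters are not in these windows.

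The libraries held between 14114351 and 19530062 counts, and levels are given as CPM, the count set against the TMM-scaled size of its library. For Star, the targeted gene, the counts were 1064, 1261 and 697 in MA-10 libraries 1, 2 and 3 and 48, 46 and 36 in STARKO1 libraries 1, 2 and 3, numbered as their replicates. All 11 Leydig cell markers, Star among them, were in the table. Their summed level was 1635 to 2151 CPM in MA-10 and 1510 to 1556 CPM in STARKO1 cells. Hsd17b3, which makes testosterone, was near 0 in both lines (means of 0.193 and 0.177 CPM). Of other testicular cells, 3 of 8 Sertoli cell markers were listed, with sums of 337 to 529 CPM in MA-10 and 574 to 597 CPM in STARKO1, nearly all of it Rhox5, and Sox9 and Amh were not listed. The 2 of 5 listed endothelial markers summed to 26.4 to 41.5 CPM in MA-10 and 118 to 124 CPM in STARKO1, nearly all of it Cdh5. The 2 of 4 listed peritubular markers had sums of 13.0 to 20.5 CPM against 1.72 to 2.59 CPM, the 1 of 8 germ cell markers 2.20 to 3.55 against 1.91 to 2.83, and the 3 of 7 macrophage markers 7.31 to 10.02 against 6.37 to 8.60. The 3 of 6 listed adrenal cortex markers had sums of 86.6 to 205 CPM against 95.7 to 106 CPM. The part of these markers in the results was not tested.

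MA-10 replicate 1 stood apart from the other MA-10 libraries. Its correlation of log2 CPM across genes (Pearson's r, genes not being independent) was 0.802 and 0.874 with MA-10 replicates 2 and 3, and 0.949 to 0.955 with the STARKO1 libraries. The 7SL RNA, the noncoding RNA of the signal recognition particle, made up 1.81%, 14.4% and 6.63% of MA-10 libraries 1, 2 and 3 and 1.82% to 2.37% in STARKO1. The value of each enzyme is therefore given with and without MA-10 replicate 1, and the part of 7SL RNA was not tested. Without that library, 7990 of the 12167 genes then tested (65.7%) had an adjusted p under 0.05 in edgeR. Passing in that fit is therefore not particular to an enzyme. In cultures sequenced in bulk, fewer cells that express a gene and less RNA per cell cannot be told apart.

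Of the 8 enzymes tested, Hsd3b1 and Hsd11b1 were called lower in STARKO1 cells and none was called higher. A call was an adjusted p under 0.05 in the edgeR quasi-likelihood test (Benjamini-Hochberg adjustment). When 1 library was left out, Hsd3b1 kept its call in 6 of 6 fits and Hsd11b1 in 1 of 6. The calls were thus 2 of 8 lower in STARKO1, against 4.74% of all 11939 genes tested, and 0 of 8 higher, against 4.30%. In both directions together, 9.04% of the genes tested passed. At an unadjusted p under 0.05, 6 of the 8 enzymes and 4493 of the 11939 genes tested differed. The 3 libraries of one line lay entirely above those of the other for 6 of the 8 enzymes, 5 of them lower and 1 higher in STARKO1, against 42.5% of all genes. The median log2 fold change over the 8 enzymes was -0.76, against -0.05 over all genes tested. Hsd3b1, which turns pregnenolone into progesterone, was 5.74-fold lower by the ratio of mean CPM, while the most abundant enzyme, Hsd3b6, had a difference that missed the threshold.

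**Figure D1:**
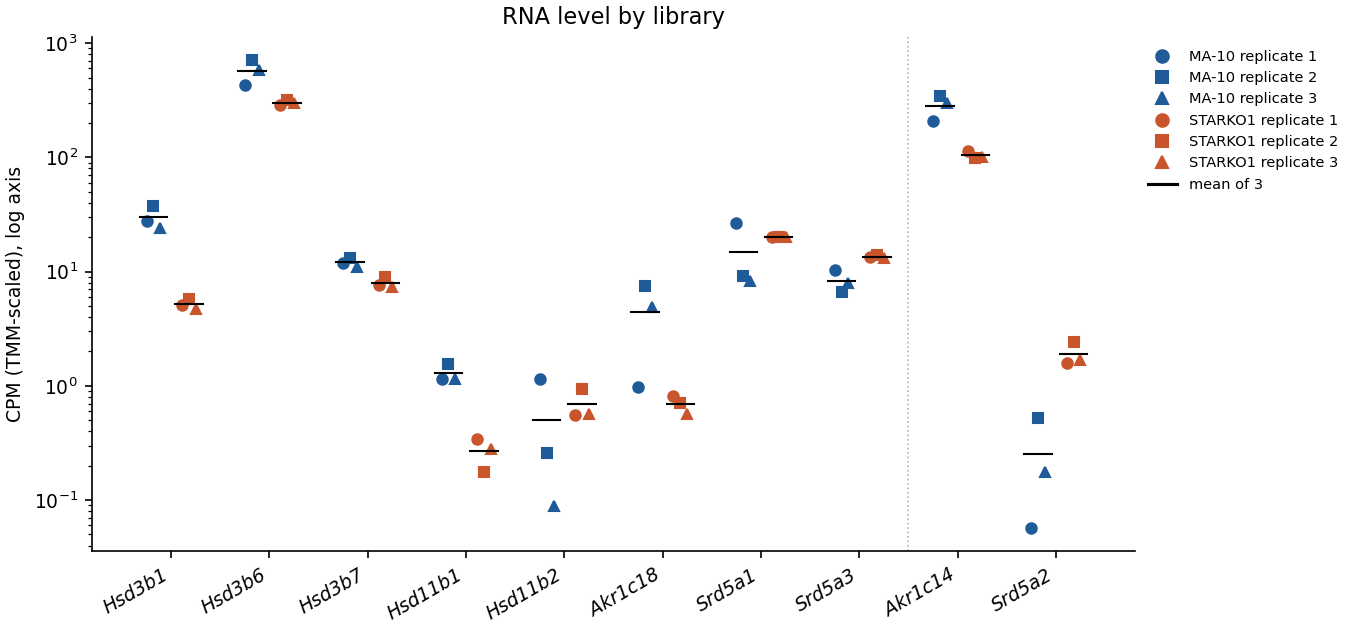
CPM on a log axis for the 8 enzymes and, right of the dotted line, the related genes Akr1c14 and Srd5a2, with 1 symbol per library and a bar at the mean of 3. The 3 MA-10 points of Hsd3b1, Hsd3b6, Hsd3b7, Hsd11b1, Akr1c18 and Akr1c14 lie above all 3 STARKO1 points. For Hsd11b2, Akr1c18 and Srd5a1 the circle of MA-10 replicate 1 lies far from the other MA-10 points.

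Per kilobase of exon, which allows levels to be compared between genes, Hsd3b6 stood far above the others in both lines. Its level was 318 ± 78.6 CPM per kilobase (SD, n = 3) in MA-10 cells and 167 ± 9.01 in STARKO1 cells. Hsd3b1 came next in MA-10 cells with 16.1 ± 3.60 CPM per kilobase, and its libraries did not overlap those of its neighbours in the order. Srd5a1 (5.06 ± 3.59), Hsd3b7 (4.34 ± 0.378), Akr1c18 (3.69 ± 2.71) and Srd5a3 (1.78 ± 0.405 CPM per kilobase) followed, each overlapping the next. Hsd11b1 (0.302 ± 0.0565) and Hsd11b2 (0.271 ± 0.308 CPM per kilobase) were lowest and overlapped each other. In STARKO1 cells the second place was held by Srd5a1 with 6.95 CPM per kilobase, and Srd5a3 (2.90 ± 0.102), Hsd3b7 (2.88 ± 0.326) and Hsd3b1 (2.80 ± 0.271 CPM per kilobase) could not be ordered because their libraries overlapped. Akr1c18 (0.576 ± 0.106) and Hsd11b2 (0.374 ± 0.120) overlapped there too, and Hsd11b1 was last at 0.0629 ± 0.0199 CPM per kilobase.

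Hsd3b1 encodes the 3β-hydroxysteroid dehydrogenase of gonads and adrenals. It had counts of 486, 429 and 276 in MA-10 libraries 1, 2 and 3 and 119, 97 and 84 in the STARKO1 libraries, or 27.8, 37.2 and 24.3 CPM against 5.12, 5.72 and 4.72 CPM. The lowest MA-10 library lay far above the highest STARKO1 library. The log2 fold change was -2.52 (SE 0.219, 95% interval -3.04 to -2.001, adjusted p = 0.00268 by the edgeR quasi-likelihood test). MA-10 replicate 1 lay between the other MA-10 libraries, and without it the log2 fold change was -2.48 (adjusted p = 2.6e-05). Hsd3b1 passed the threshold in all 8 alternatives with 6 libraries and in all 6 fits that left out 1 library.

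Hsd3b6 encodes the 3β-hydroxysteroid dehydrogenase of adult mouse Leydig cells. It had counts of 7462, 8188 and 6618 in the MA-10 libraries and 6702, 5424 and 5285 in the STARKO1 libraries. After scaling these were 427, 710 and 583 CPM against 288, 320 and 297 CPM, so the lines did not overlap and the lowest MA-10 library was replicate 1. A log2 fold change of -0.93 was estimated (SE 0.238, 95% interval -1.49 to -0.36), and its adjusted p of 0.0568 in the edgeR quasi-likelihood test missed the threshold. Without MA-10 replicate 1 it passed, as did 65.7% of all genes, with a log2 fold change of -1.01 (adjusted p = 0.00021). With scaling by library size alone the log2 fold change was -0.42 (adjusted p = 0.164), where the median of all genes was 0.38.

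With log2 fold changes of -2.52 for Hsd3b1 and -0.93 for Hsd3b6, the make-up of the Hsd3b messages within a library was compared, which does not depend on scaling. Hsd3b1 took 5.96%, 4.89% and 3.93% of the summed counts of Hsd3b1, Hsd3b6 and Hsd3b7 in MA-10 libraries 1, 2 and 3, and 1.70%, 1.71% and 1.53% in the STARKO1 libraries. All 3 MA-10 shares were above all 3 STARKO1 shares, and the 95% Wilson intervals, which cover counting error only, ran down to 3.50% in the lowest MA-10 library and up to 2.08% in the highest STARKO1 library. The mean was 4.93% ± 1.01 (SD, n = 3) in MA-10 and 1.65% ± 0.103 (SD, n = 3) in STARKO1 cells, a difference of -3.28 percentage points. The exact two-sided permutation test gave p = 0.1, the smallest that 3 against 3 libraries allow. Per kilobase of exon the shares were 4.83% ± 1.00 and 1.61% ± 0.102. There were 15.4, 19.1 and 24.0 counts of Hsd3b6 for each count of Hsd3b1 in MA-10 libraries 1, 2 and 3 and 56.3, 55.9 and 62.9 in the STARKO1 libraries. Messages of Hsd3b6 were thus the large majority in both lines, and their number per Hsd3b1 message was higher in each STARKO1 library than in any MA-10 library.

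**Figure D2:**
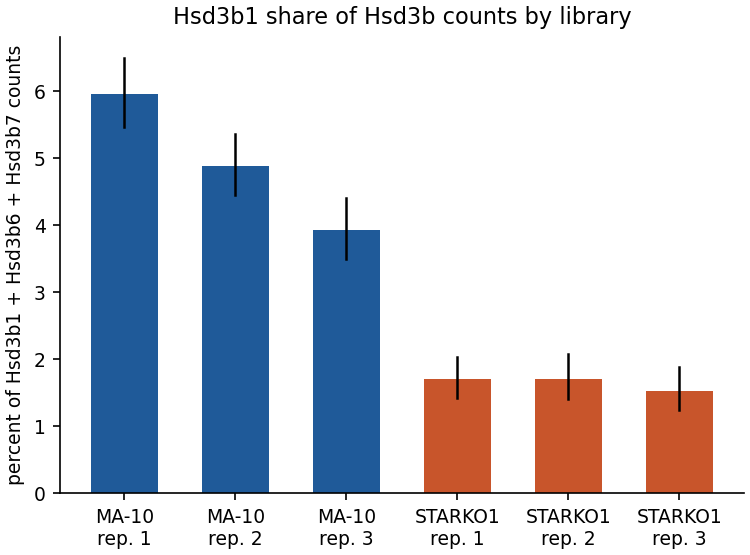
Share of Hsd3b1 in the summed counts of Hsd3b1, Hsd3b6 and Hsd3b7, in percent, with 1 bar per library and its 95% Wilson interval as a line. The MA-10 bars reach 3.93% to 5.96% and the STARKO1 bars 1.53% to 1.71%.

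Hsd3b7 encodes a related dehydrogenase of bile acid synthesis that acts on hydroxylated cholesterol and not on pregnenolone. It lies at chr7:127800604-127803803 on the plus strand and had counts of 209, 151 and 125 in the MA-10 libraries and 176, 153 and 131 in the STARKO1 libraries. These were 12.0, 13.1 and 11.01 CPM against 7.57, 9.02 and 7.36 CPM, without overlap between the lines. Its log2 fold change of -0.59 (SE 0.174, 95% interval -1.004 to -0.18, adjusted p = 0.0692 in the edgeR quasi-likelihood test) missed the threshold, and passed it without MA-10 replicate 1 (-0.51, adjusted p = 0.0197). Its exons share 1717 bases with Gm49388 on the same strand, which had 836, 81 and 216 counts in MA-10 and 851, 539 and 670 in STARKO1, so the split of reads between them is uncertain. Exons of 9430064I24Rik on the opposite strand share 1729 bases with it, and whether the counting used strand was not given in the sources used here. With scaling by library size alone the log2 fold change of Hsd3b7 was -0.15 (adjusted p = 0.711).

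Hsd11b1, which regenerates active glucocorticoid, was the other enzyme that fell, from a low level. It lies at chr1:193221634-193264076 on the minus strand and had counts of 20, 18 and 13 in the MA-10 libraries and 8, 3 and 5 in the STARKO1 libraries. In CPM these were 1.15, 1.56 and 1.15 against 0.344, 0.177 and 0.281, without overlap, although the value of STARKO1 library 2 rests on 3 counts, the smallest level taken as shown. The log2 fold change was -2.20 (SE 0.381, 95% interval -3.10 to -1.29, adjusted p = 0.0231 in the edgeR quasi-likelihood test), and without MA-10 replicate 1 it was -2.18 (adjusted p = 0.00264). The call was lost when any 1 of the other 5 libraries was left out: the adjusted p was 0.0542 without MA-10 replicate 2, 0.0775 without MA-10 replicate 3, and 0.123, 0.135 and 0.148 without STARKO1 libraries 1, 2 and 3. It was also lost with scaling by library size alone (log2 fold change -1.74, adjusted p = 0.0803). Hsd11b1 lies within the span of Lamb3 on the opposite strand, with no exonic base in common.

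Hsd11b2, which inactivates glucocorticoids in aldosterone target cells (chr8:105518755-105523989, plus strand), had counts of 20, 3 and 1 in the MA-10 libraries and 13, 16 and 10 in the STARKO1 libraries. The MA-10 libraries were both the highest and the lowest, at 1.15, 0.260 and 0.0881 CPM against 0.559, 0.943 and 0.562 CPM. Its log2 fold change of 0.32 (SE 0.745, 95% interval -1.45 to 2.09, adjusted p = 0.769 in the edgeR quasi-likelihood test) left a difference of severalfold in either direction possible. Without MA-10 replicate 1 the log2 fold change was 2.00 (adjusted p = 0.0272), and without MA-10 replicate 3 it was -0.12 (adjusted p = 0.917). The direction for Hsd11b2 thus rested on which MA-10 library was included.

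**Figure D3:**
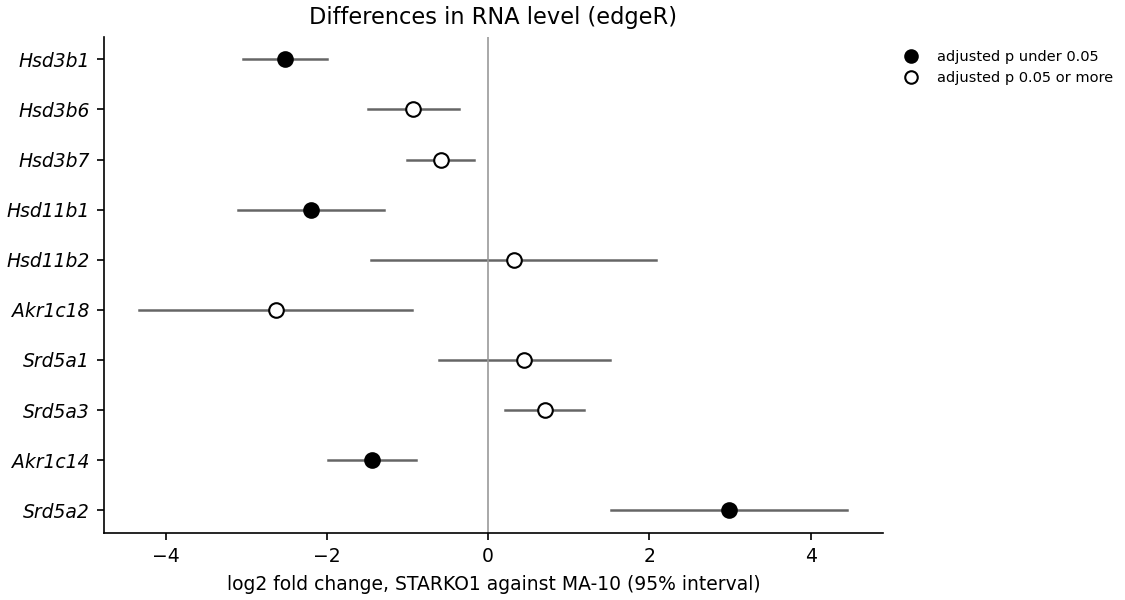
Log2 fold change in STARKO1 against MA-10 cells with its 95% interval for the 8 enzymes and for Akr1c14 and Srd5a2, filled where the adjusted p of the edgeR quasi-likelihood test was under 0.05. Hsd3b1 (-2.52), Hsd11b1 (-2.20), Akr1c14 (-1.44) and Srd5a2 (2.99) are filled, and the intervals of Hsd11b2 and Srd5a1 cross 0.

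Akr1c18 encodes the 20α-hydroxysteroid dehydrogenase that turns progesterone into its inactive 20α-hydroxy form. The gene (chr13:4132615-4150655, minus strand) had counts of 17, 86 and 56 in the MA-10 libraries and 19, 12 and 10 in the STARKO1 libraries. In CPM these were 0.974, 7.46 and 4.93 against 0.817, 0.707 and 0.562, so MA-10 replicate 1 lay just above the STARKO1 libraries and the other MA-10 libraries far above them. Hsd3b6, Akr1c14 and Cyp11a1 had their MA-10 libraries in the order of the 7SL share, while Hsd3b1 and Srd5a1 did not. Akr1c18 had this order too, and the part of 7SL RNA was not tested. The log2 fold change of -2.64 was as large as that of Hsd3b1, but its SE was 0.711 (95% interval -4.33 to -0.95) and its adjusted p of 0.0610 in the edgeR quasi-likelihood test missed the threshold. Without MA-10 replicate 1 it was -3.03 (adjusted p = 6.5e-05), and without MA-10 replicate 2, the highest library, -2.02 (adjusted p = 0.141).

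Srd5a1, the 5α-reductase that acts on progesterone and testosterone (chr13:69573449-69611443, minus strand), had counts of 467, 105 and 94 in the MA-10 libraries and 470, 343 and 360 in the STARKO1 libraries. These were 26.7, 9.11 and 8.28 CPM against 20.2 CPM in each STARKO1 library, so that MA-10 replicate 1 lay above and the other MA-10 libraries lay below the knockout clone. A log2 fold change of 0.45 was estimated (SE 0.447, 95% interval -0.61 to 1.51, adjusted p = 0.475 in the edgeR quasi-likelihood test), and without MA-10 replicate 1 it was 1.31 (adjusted p = 6.5e-05). Gm17108, with 10 to 28 counts a library, shares 476 exonic bases with it on the same strand.

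Srd5a3 (chr5:76140271-76155505, plus strand), named after the 5α-reductases but required for making dolichol, the lipid carrier of protein glycosylation, had 180, 76 and 90 counts in MA-10 and 309, 238 and 234 in STARKO1 libraries 1, 2 and 3. It was the only one of the 8 enzymes whose STARKO1 libraries all lay above the MA-10 libraries, at 13.3, 14.03 and 13.2 CPM against 10.3, 6.59 and 7.93 CPM. The log2 fold change of 0.70 (SE 0.206, 95% interval 0.21 to 1.19, adjusted p = 0.0694 in the edgeR quasi-likelihood test) missed the threshold, and without MA-10 replicate 1 it was 0.98 (adjusted p = 0.00069). Without that library all 8 enzymes passed, as did 7990 of the 12167 genes then tested (65.7%). With DESeq2, Hsd3b6 (adjusted p = 0.00289), Hsd3b7 (0.0340), Akr1c18 (0.00201) and Srd5a3 (0.0208) passed beside Hsd3b1 and Hsd11b1, as did 3395 of all genes (28.4%).

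**Figure D4:**
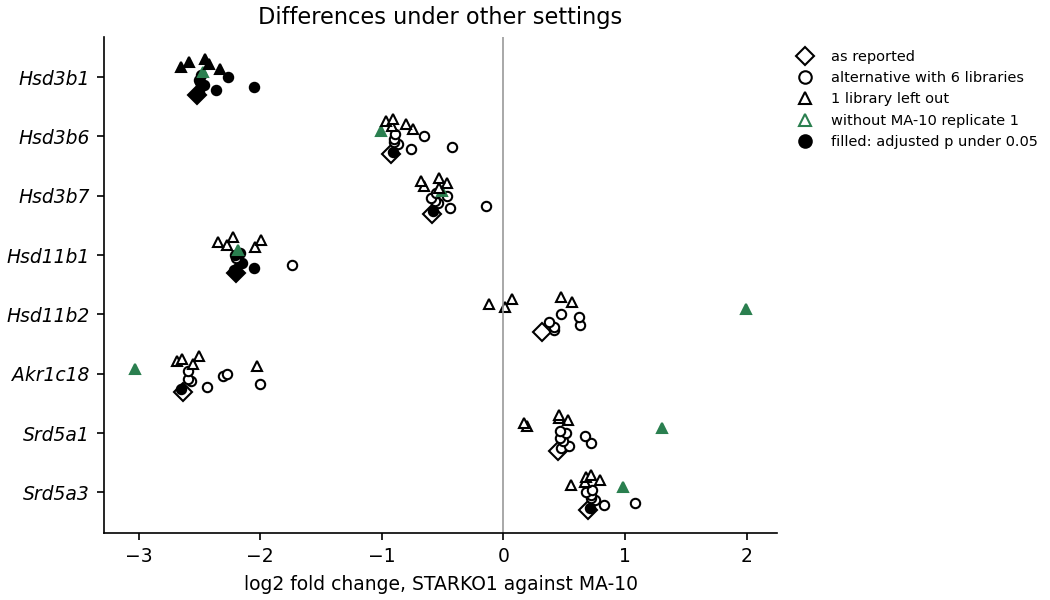
Log2 fold change of each enzyme as reported (diamonds), under the alternatives that kept all 6 libraries (circles) and with 1 library left out (triangles, green without MA-10 replicate 1), filled where the adjusted p was under 0.05. Every symbol of Hsd3b1 is filled, Hsd11b2 spans both sides of 0 (-0.12 to 2.00), and the green triangle is filled for all 8 enzymes.

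The relatives of these enzymes were described as a list of 20 genes, of which 7 were in the table and tested, 1 lower, 1 higher and 5 not passing, with a median log2 fold change of -0.68. The 2 that passed were 28.6% of the 7, beside 9.04% of all genes. Leaving out MA-10 replicate 1, 4 were lower and 1 was higher, where 65.7% of all genes passed. With DESeq2 the numbers were 2 and 1, where 28.4% of all genes passed. Akr1c14, the 3α-hydroxysteroid dehydrogenase that acts after the 5α-reductases on progesterone metabolites, fell: it had counts of 3609, 3983 and 3375 in the MA-10 libraries and 2630, 1667 and 1800 in the STARKO1 libraries. In CPM these were 207, 345 and 297 against 113, 98.3 and 101, without overlap. Its log2 fold change was -1.44 (SE 0.232, adjusted p = 0.0180 in the edgeR quasi-likelihood test), and -1.53 without MA-10 replicate 1 (adjusted p = 2.8e-05). Akr1c14 had 76.0% of its aligned coding bases in common with Akr1c18 and no window of 50 bases, and per kilobase it was at 87.4 ± 21.7 CPM in MA-10 cells, far above Akr1c18. The call was lost on leaving out MA-10 replicate 3 (adjusted p = 0.0828) or STARKO1 replicate 1, 2 or 3 (0.116, 0.127 and 0.1299).

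Srd5a2, the other steroid 5α-reductase, rose from 1, 6 and 2 counts in the MA-10 libraries to 37, 41 and 30 in the STARKO1 libraries. Its libraries did not overlap, with 0.0573, 0.520 and 0.176 CPM against 1.59, 2.42 and 1.69 CPM. The log2 fold change was 2.99 (SE 0.619, adjusted p = 0.0357 in the edgeR quasi-likelihood test), 2.49 without MA-10 replicate 1 (adjusted p = 0.00269) and 4.07 without MA-10 replicate 2 (adjusted p = 0.0262). The call was lost without MA-10 replicate 3 (adjusted p = 0.143) or without STARKO1 replicate 1, 2 or 3 (0.133, 0.159 and 0.157). Even in STARKO1 cells its level of 1.18 ± 0.282 CPM per kilobase was below the 6.95 of Srd5a1. Of the most abundant relatives, Akr1cl had a log2 fold change of -0.29 (adjusted p = 0.424), with a sign that turned under scaling by library size alone (0.23), Tecr of very long fatty acid synthesis one of -0.68 (adjusted p = 0.248), and Nsdhl of cholesterol synthesis one of 0.29 (adjusted p = 0.348).

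The steps around these enzymes were read from lists of genes with known roles. Of the 4 genes that supply pregnenolone, Star, the targeted gene, fell and the other 3 did not pass. The log2 fold change of Star was -5.09 (SE 0.331, adjusted p = 0.00121 in the edgeR quasi-likelihood test). Cyp11a1, which makes pregnenolone, was at 610, 1118 and 778 CPM in the MA-10 libraries and 432, 434 and 450 CPM in the STARKO1 libraries, with a log2 fold change of -0.93 (adjusted p = 0.0670) beside the -0.93 of Hsd3b6. Without MA-10 replicate 1 it was -1.02 (adjusted p = 0.0006). The counts of Cyp11a1 for each count of Hsd3b6 were 1.43, 1.57 and 1.33 in MA-10 and 1.499, 1.36 and 1.52 in STARKO1 libraries, so this ratio overlapped between the lines. Its electron donors Fdx1 (log2 fold change -0.11, adjusted p = 0.706, with a sign that turned under 2 other scalings) and Fdxr (0.79, adjusted p = 0.0878) did not pass either. Cyp11a1 and Fdxr passed without MA-10 replicate 1 and with DESeq2, as did 65.7% and 28.4% of all genes.

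Of the androgen and estrogen steps, 0 of 10 tested genes passed in edgeR, and the median log2 fold change was -0.35. An unadjusted p under 0.05 was reached by 5 of them, beside 4493 of the 11939 genes tested. In the fit that left out MA-10 replicate 1, 8 of the 10 passed, 6 lower and 2 higher, beside 65.7% of all genes, and with DESeq2 4 passed, 2 lower and 2 higher, beside 28.4% of all genes. Of the most abundant, Hsd17b4 of peroxisomal fatty acid breakdown had a log2 fold change of -0.92 (adjusted p = 0.106), Hsd17b12 of fatty acid elongation one of -0.24 (adjusted p = 0.607) and the cytochrome b5 gene Cyb5b one of 0.04 (adjusted p = 0.913), the last 2 with signs that turned under an alternative. Cyp17a1, which takes progesterone on to androgens and was chosen after its values were seen, had 2.12, 6.24 and 2.38 CPM in the MA-10 libraries against 6.28, 10.5 and 8.93 CPM in the STARKO1 libraries. Its log2 fold change of 1.27 missed the threshold (adjusted p = 0.0949). It passed with DESeq2 (adjusted p = 0.0358), without MA-10 replicate 1 (1.07, adjusted p = 0.0317) and without MA-10 replicate 2 (1.93, adjusted p = 0.0339), and was 1.05 without MA-10 replicate 3 (adjusted p = 0.259).

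Of the corticosteroid steps, 0 of 5 tested genes passed in edgeR, and the median log2 fold change was -0.12. At an unadjusted p under 0.05 there was 1 of them, beside 4493 of the 11939 genes tested. With MA-10 replicate 1 left out, 1 was lower and 2 were higher, beside 65.7% of all genes passing. With DESeq2 1 was lower, beside 28.4% of all genes passing. H6pd, which supplies the cofactor of HSD11B1, had 62.4, 29.0 and 43.5 CPM in MA-10 and 41.0, 41.6 and 41.4 CPM in STARKO1 libraries 1, 2 and 3, a log2 fold change of -0.12 (95% interval -0.78 to 0.53, adjusted p = 0.756) whose sign turned under scaling by library size alone and without MA-10 replicate 1. The NADPH-making genes G6pdx (-0.23, adjusted p = 0.306, turned under scaling by library size alone) and Pgd (0.57, adjusted p = 0.182) did not pass. Cyp11b1, the last enzyme of corticosterone synthesis, is named as an adrenal cortex marker and was not among the most abundant of this list. It had 8.25, 5.38 and 3.43 CPM in the MA-10 libraries against 1.68, 0.884 and 2.25 CPM in the STARKO1 libraries. Its log2 fold change of -1.83 missed the threshold (adjusted p = 0.0516). It passed with DESeq2 (adjusted p = 0.00229) and without MA-10 replicate 1 (-1.35, adjusted p = 0.0121).

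Of the dolichol pathway that Srd5a3 belongs to, 1 of 15 tested genes passed, 6.67% beside 9.04% of all genes, and the median log2 fold change was -0.02. The libraries did not overlap for 5 genes that were lower and 3 that were higher in STARKO1 cells, beside 42.5% of all genes. When MA-10 replicate 1 was left out, 5 genes were lower and 3 higher, beside 65.7% of all genes passing. With DESeq2 5 were lower and 1 was higher, beside 28.4% of all genes passing. The gene that passed was Dolk, the dolichol kinase, which rose from 5.73, 5.46 and 3.96 CPM to 10.7, 12.0 and 12.4 CPM (log2 fold change 1.21, SE 0.203, adjusted p = 0.0215 in the edgeR quasi-likelihood test). Its call was lost without MA-10 replicate 3 (adjusted p = 0.0715) or any STARKO1 library (0.0929 to 0.129), and with scaling by library size alone (0.0553). Larger differences of the other sign missed the threshold in 2 subunits of the dolichol-phosphate mannose synthase, chosen after their values were seen. Dpm1 had 2.98, 48.6 and 18.2 CPM against 1.85, 2.30 and 2.81 CPM (log2 fold change -3.32, SE 0.906, adjusted p = 0.0621). Dpm3 had 6.59, 52.1 and 30.3 CPM against 3.74, 4.30 and 4.83 CPM (-2.78, SE 0.681, adjusted p = 0.0515). In both, MA-10 replicate 1 lay nearest to the STARKO1 libraries, without it both passed (-3.76 and -3.17), and without MA-10 replicate 2 they were -2.18 and -2.09 (adjusted p = 0.134 and 0.111). Among the most abundant genes of the pathway, Nus1 had a log2 fold change of -0.18 (adjusted p = 0.414), Alg1 one of -0.85 (adjusted p = 0.0678) and Alg2 one of -0.37 (adjusted p = 0.1799), and the signs of Nus1 and Alg2 turned under scaling by library size alone.

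Of the sulfation genes and other sulfatases, 0 of 13 tested passed in edgeR. At an unadjusted p under 0.05 there were 2 of them, beside 4493 of the 11939 genes tested. Papss1 and Arsb, among the most abundant, had log2 fold changes of 0.28 and 0.47 (adjusted p = 0.305 and 0.148). Of the 13, 7 were higher and 0 lower without MA-10 replicate 1, where 65.7% of all genes passed in either direction. With DESeq2 1 was higher, where 28.4% of all genes passed. Of the bile acid side pathway around Hsd3b7, 0 of 3 tested genes passed in edgeR, beside 9.04% of all genes. An unadjusted p under 0.05 was reached by 1 of them, Scp2, beside 4493 of the 11939 genes tested. Scp2 had a log2 fold change of -1.38, Amacr one of 0.40 and Cyp39a1 one of 0.01 (adjusted p = 0.0916, 0.258 and 0.978). Without MA-10 replicate 1, Scp2 was lower (-1.68, adjusted p = 6.4e-05) and Amacr higher (0.80, adjusted p = 0.00101), where 65.7% of all genes passed. With DESeq2 Scp2 was lower, where 28.4% of all genes passed. The sign of Cyp39a1 turned when single libraries were left out.

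**Figure D5:**
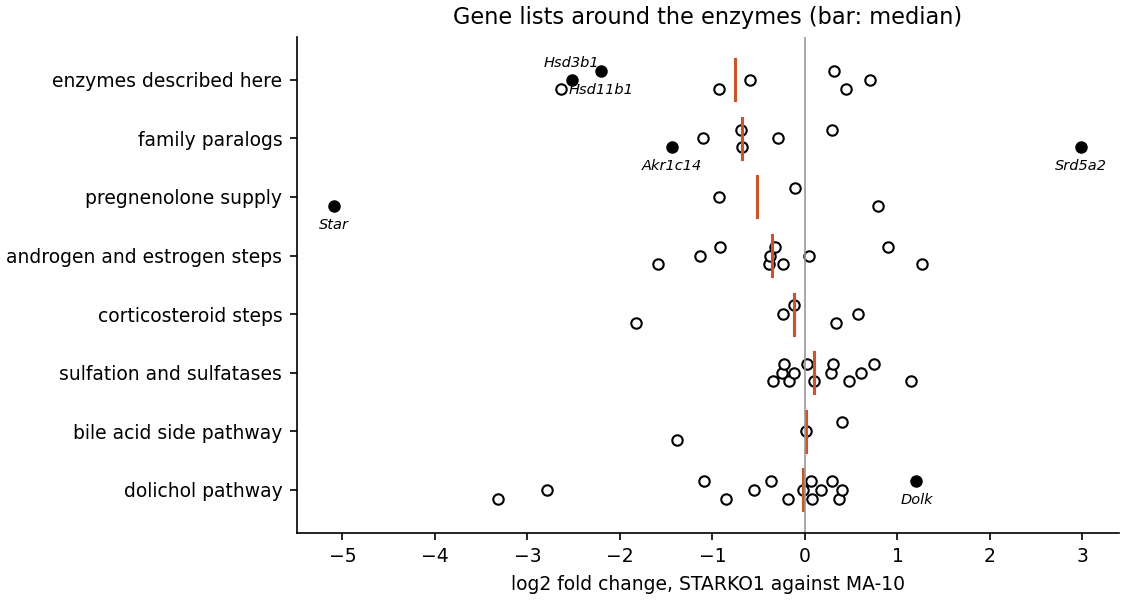
Log2 fold change in STARKO1 against MA-10 cells of each tested gene of the lists, 1 circle per gene, filled and named where the adjusted p of the edgeR quasi-likelihood test was under 0.05, with a bar at each list's median. Star lies farthest left at -5.09 and Srd5a2 farthest right at 2.99, and 4 lists (androgen and estrogen steps, corticosteroid steps, sulfation and sulfatases, bile acid side pathway) have no filled circle.

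The pattern of Hsd3b6, the most abundant enzyme, was set beside those of all tested genes as a description. The highest Pearson correlations of log2 CPM over the 6 libraries, which share their scaling factors and the split between the lines, were those of Ankrd24 (0.999), 3110040N11Rik (0.998), Elp3 (0.998), Rhoc (0.998) and Coq6 (0.997). As many as 950 genes had a correlation above 0.95, so these neighbours were not particular to Hsd3b6.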

How the data were processed

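Total RNA was made into stranded libraries by the authors (SMARTer Pico kit) and sequenced. They deposited estimated counts per gene and library, without normalization and with replicates kept apart, and values of 8007 genes were fractional in 1 or more libraries. The submitters' processing notes name STAR 2.6.1d, Partek and mm10. All 6 columns matched a library by name. Here the estimated counts were rounded, then tested with edgeR 4.0.16 in R 4.3.3 (filterByExpr, TMM, glmQLFit and glmQLFTest, two-sided, Benjamini-Hochberg over all genes, threshold 0.05). Standard errors are the log2 fold change divided by the square root of F. CPM are TMM-scaled. The floor was 3 counts. Gene positions are given as the authors deposited them. The deposited end of Hsd3b1 and of Hsd3b6 is also the lowest position of its promoter window. Exon lengths and coding sequences came from GENCODE M21 (GRCm38), with 14677 genes found there. Sequences were aligned with Biopython 1.88. Scripts were tested on simulated counts. The depth leaves little counting error except for Hsd11b1, Hsd11b2, Akr1c18 and Srd5a2.

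The genes and lists were chosen with earlier results of these data known. The text names all the enzymes. From each list it names genes with an adjusted p under 0.05 and up to 3 more of the highest mean CPM. Cyp17a1, Dpm1 and Dpm3 were chosen after their values were seen. Cyp11b1 was picked from the adrenal cortex markers and not from the corticosteroid list, where more abundant genes were picked. Some cell type markers and 1 gene of the sulfation list are not reported by name here. The alternatives were DESeq2 1.42.0, upper quartile scaling, library size alone, no filter, a replicate block, a minimum of 10 counts in every library, gene length offsets, removal of the 50 most abundant genes, and leaving out each library. Same-numbered libraries did not deviate together (correlations of -0.03, 0.09 and -0.02), and no source says that they were prepared together, so the numbers were not taken as pairs.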

Additional observations from a re-analysis of the deposited data

How the results depend on the processing

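Hsd3b1 kept its direction and passed the threshold in all 14 alternatives. Over the 8 enzymes, 91 of 109 comparisons with an alternative kept both direction and side of the threshold, 7 lost the call, all of Hsd11b1, 10 gained one, 4 of them with DESeq2 and 6 without MA-10 replicate 1, and 1 turned. The number of enzymes called was 6 with DESeq2 and 1 each with library size alone, with at least 10 counts in every library (6 tested, Hsd11b1 and Hsd11b2 not) and with the replicate block, and 1 to 8 when 1 library was left out, where the 8 came without MA-10 replicate 1. Over all genes the numbers were 3395, 330, 695 and 234 in the same order, and 89 to 7990 when 1 library was left out. Library size alone moved the median log2 fold change of all genes by 0.43, and 63.6% of its calls were higher in STARKO1, against 47.5%. With the replicate block, Hsd3b1 kept its call (adjusted p = 0.0122), and Hsd11b1 (0.0855), Akr1c14 (0.0699), Srd5a2 (0.0607), Dolk (0.0756) and Inha (0.0986) lost theirs; the numbers do not pair the libraries. Log2 fold changes turned for Akr1cl (0.23), Fdx1 (0.35), H6pd (0.21), Hsd17b12 (0.32), G6pdx (0.20), Nus1 (0.23), Alg2 (0.064) and Scarb1 (0.25) with library size alone, and for Fdx1 (0.045) and Scarb1 (0.0053) with upper quartile scaling. When 1 library was left out, the ranges were -0.12 to 2.00 for Hsd11b2, -0.26 to 0.078 for Fdx1, -0.36 to 0.27 for H6pd, -0.054 to 0.20 for Cyb5b, -0.43 to 0.065 for Hsd17b12, -0.099 to 0.32 for Cyp39a1 and -0.24 to 0.19 for Scarb1. With the 50 most abundant genes removed, 7 enzymes were tested and Hsd11b2 was not. The cause of these shifts was not tested. The depth limits Hsd11b1, Hsd11b2 and Srd5a2, where 3 counts stand for 0.129 to 0.264 CPM.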

Other observations

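Of the 10 Leydig cell markers tested, 2 were lower in STARKO1 cells, Star and Inha, 0 were higher and 8 did not pass. Star is the gene targeted in STARKO1, so its call is not a separate result about the markers, and only Inha remains beside it. Of all genes tested, 4.74% were lower and 4.30% higher. The median log2 fold change of the markers was -0.06. Inha, the alpha subunit of inhibin, fell from 71.1, 77.4 and 53.1 CPM in MA-10 libraries 1, 2 and 3 to 35.6, 32.5 and 37.0 CPM in the STARKO1 libraries (log2 fold change -0.94, adjusted p = 0.0328 in the edgeR quasi-likelihood test). Its call was lost in 4 of 8 alternatives with 6 libraries and in 5 of 6 fits without 1 library, where it was kept without MA-10 replicate 1. Nr5a1, the transcription factor of steroidogenic cells, had 571, 452 and 392 CPM against 608, 638 and 652 CPM, all 3 STARKO1 libraries higher, and missed the threshold (log2 fold change 0.42, adjusted p = 0.189). Scarb1, a lipoprotein receptor, was at -0.12 (adjusted p = 0.689), with a sign that turned under 2 other scalings. Of the 10 markers, 3 were lower and 3 higher without MA-10 replicate 1, where 65.7% of all genes passed. Cdh5, an endothelial cadherin, rose from 34.0, 41.3 and 26.1 CPM to 117, 123 and 121 CPM (log2 fold change 1.84, adjusted p = 0.00596), and Des, the intermediate filament protein of muscle, fell (log2 fold change -3.00, adjusted p = 0.00500); both passed in all 14 alternatives.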
